A study of Mus musculus with 9 samples.

Results

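Enzymes and carriers that move pyruvate into the mitochondrion, turn it through the citrate cycle and lead carbon back out towards citrate, malate and glycerol phosphate were followed in 3T3-L1 cells, mouse preadipocytes in culture that turn into fat-storing adipocytes under hormonal induction. The set holds 35 genes named by their function, which were matched by symbol. All 35 were listed in each of the 9 samples, of 19094 genes listed in at least 1 sample, and all 35 were among the 13154 genes that passed the filter on low counts. Succinate dehydrogenase was left to the respiratory chain and is not among them. Cells were grown in high-glucose DMEM with fetal bovine serum. Day 0 cells were collected before induction. Day 4 cells had received dexamethasone, IBMX and insulin for 2 days and then insulin alone in maintenance medium for 2 days, and day 8 cells had been in that maintenance medium for 6 days. Each day has 3 replicates, and nothing in the labels says that they came from separate cultures, so p-values measure the spread between these samples, which may be technical. The comparison of day 4 with day 0 is called the early phase, day 8 with day 4 the late phase and day 8 with day 0 the whole process. The early and the late phase share the day 4 samples, and the whole process shares its samples with both.

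Pyruvate has 2 main fates inside the mitochondrion. Pyruvate dehydrogenase burns it to acetyl-CoA, and pyruvate carboxylase makes oxaloacetate of it, which joins acetyl-CoA to form citrate. In fat cells much citrate leaves for the cytosol, where it supplies carbon for fatty acids, and oxaloacetate can also be turned to phosphoenolpyruvate by phosphoenolpyruvate carboxykinase, the step that begins glyceroneogenesis, the making of glycerol phosphate from precursors other than glucose and glycerol.

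The cells were checked against markers before the enzymes were read. Of 10 adipocyte markers, Fabp4, Pparg, Lpl and Cidec had enough counts at day 0 to pass the filter without the later days. On the log2 scale they rose early by 8.81, 3.00, 3.50 and 10.2. Each rise was above 2-fold, against 9.77% of all genes tested. The other markers passed through the later days alone, so their direction against day 0 is not read as a result. Of these, Adipoq had 0.503 ± 0.19 FPKM on day 0, 467 ± 94 on day 4 and 819.8 ± 60 on day 8 (mean ± SD, n = 3). Of 8 preadipocyte markers, 7 fell at an adjusted p under 0.05 in the early phase (33.7% of all genes tested). Of these, 2 fell more than 2-fold (7.98% of all genes), Dlk1 and Ly6a. In the late phase 5 of the 8 rose, Dlk1 (by 1.24 on the log2 scale), Pdgfrb, Thy1, Col1a1 and Col1a2, and 1 fell, against 22.5% and 22.7% of all genes. Over the whole process 4 of the 8 rose and 3 fell, against 34.8% and 36.2% of all genes, so the list as a whole did not go one way. The sample labels carry an extraction text for dorsal root ganglion, a sensory nerve tissue. Of 10 sensory neuron markers 1 passed the filter, Avil, which had 2.32 FPKM at day 0 and 0.483 at day 8, while Scn10a and Nefl had a mean of at most 0.00667 FPKM on any day. Among macrophage markers Adgre1 and Ptprc had at most 0.0167 FPKM on average on any day, and the most abundant was Cd68, with means of 1.30 to 1.49 FPKM over the 3 days. Of 6 brown adipocyte markers 3 passed the filter on low counts. These had at most 2 counts in any day 0 sample and passed through the later days alone. Their direction against day 0 was thereby fixed and is not read as a result. They were Cox7a1 (0.23, 1.83 and 12.2 FPKM on the 3 days), Cox8b (listed at 0 at day 0, then 1.84 and 12.2) and Elovl3 (listed at 0 at day 0, then 0.427 and 0.31). The other 3 were low throughout, and Ucp1 had a mean of at most 0.04 FPKM. Of the endothelial, muscle and hepatocyte markers 2, 2 and 1 passed the filter, and the most abundant of them was the muscle gene Des, with 3.74, 4.51 and 8.23 FPKM. On the log2 scale Acta1 rose by 1.16 late and Des rose by 1.25 over the whole process. Vwf (0.47, 0.0567 and 0.03 FPKM), Pecam1 (0.13, 0.133 and 0.257) and Cyp2e1 (0.0533, 0.85 and 0.03) passed the filter through their highest day. That was day 0, day 8 and day 4. Their direction against the other days is thus not read as a result. The part of any of these in the results below was not tested. In bulk samples such as these, a change in the number of cells of a type and a change in RNA per cell cannot be told apart.

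The enzymes as a group rose early and then stayed near their day 4 level. Together they took 0.352%, 0.365% and 0.355% of all FPKM at day 0, 0.656%, 0.696% and 0.715% at day 4, and 0.700%, 0.724% and 0.714% at day 8. FPKM, the authors' value per gene scaled to gene length and sample depth, was used for levels, and the deposited expected counts were used for tests. In the early phase 18 of 35 were called higher, which means more than 2-fold higher with an adjusted p under 0.05 by edgeR's quasi-likelihood test, and 0 were called lower. Across all 13154 genes tested, 9.77% were called higher and 7.98% lower. At an adjusted p under 0.05 with no limit on the fold change, 32 rose and 3 fell, against 35.5% and 33.7% of all genes. Pck1 is among the 18 and the 32. It passed the filter on low counts through the later days alone, so its direction against day 0 is not read as a result. With at least 10 counts in every sample, which removes Pck1, 17 of 34 were called higher, against 831 of 11799 genes tested. The median log2 fold change of the 35 was 1.01, and that of all genes was 0.02. The 3 that fell were Pdk3, Pck2 and Got1.

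In the late phase 1 gene was called higher, Pck1, and 1 was called lower, Pdk4. The shares of all genes were 4.24% and 2.81%, so the share of the enzymes called in this phase (1 in each direction) was near the background. Without the fold limit 16 rose, 6 fell and 13 did not pass, against 22.5% and 22.7% of all genes, and the median log2 fold change was 0.09. Over the whole process 17 were called higher and 0 lower, against 10.3% and 7.7% of all genes. Pck1 is again among those called higher, and its direction against day 0 is not read as a result. Mdh2 was called over the whole process at a log2 fold change of 1.07. Idh1 was called at 1.04, and was under the limit without day 0 replicate 1 (0.99). Fh1 (0.99) passed it without day 0 replicate 1, day 4 replicate 2 or day 8 replicate 3, and Idh3g (0.99) without day 0 replicate 2, day 4 replicate 2, day 8 replicate 1 or day 8 replicate 3, both at no more than 1.04. The genes Idh2 and Pdk4, called early, stood at 0.50 and -0.54 over the whole process. Without the fold limit 29 rose and 4 fell over the whole process, against 34.8% and 36.2%, and Pdk3 and Pck2 did not pass. The difference between the early and the late change was itself tested. The early change was the greater in 31 genes and the late one in 4, Pck1, Pck2, Pdk3 and Got1, against 30.4% and 26.2% of all genes tested.

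**Figure D1:**
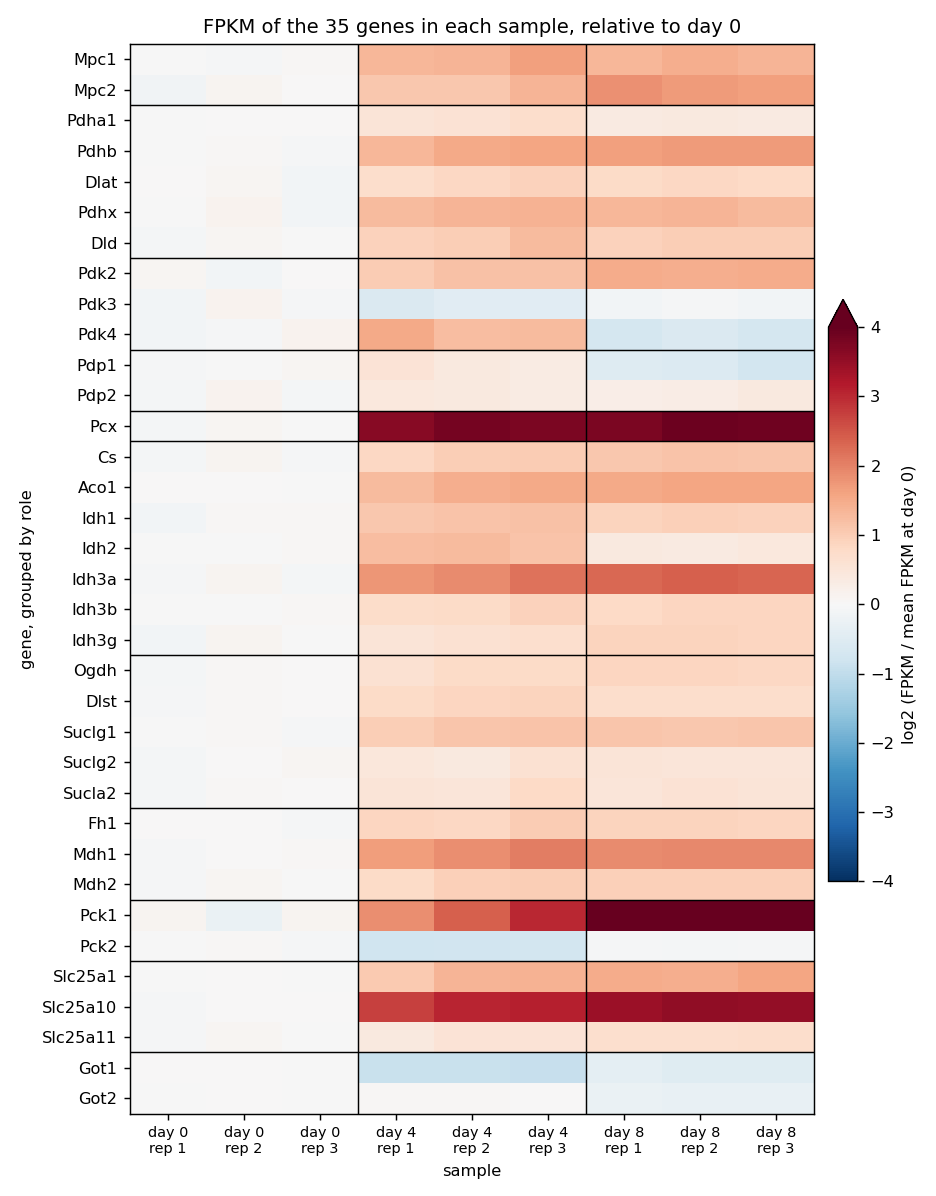
Each row is a gene and each column a sample, with colour giving log2 of FPKM over the gene's mean FPKM at day 0. Most rows turn red at day 4 and keep that shade at day 8, Pcx, Slc25a10 and Pck1 are the darkest rows at day 8, and Pdk3, Pck2 and Got1 are blue at day 4.

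By the order of the early and late change at an adjusted p under 0.05, 13 genes rose in both phases (8.24% of all genes tested), 13 rose early and did not pass late (16.4%), 6 rose early and fell late (10.9%), and 3 fell early and rose late (9.82%). Pck1 is counted among those that rose in both phases, though its direction against day 0 is not read as a result. The 6 that rose and then fell were Got2, Idh1, Idh2, Pdha1, Pdk4 and Pdp1. The highest mean FPKM was at day 8 in 18 genes (23.6% of all genes tested), at day 4 in 14 (28.2%) and at day 0 in 3 (48.2%).

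**Figure D2:**
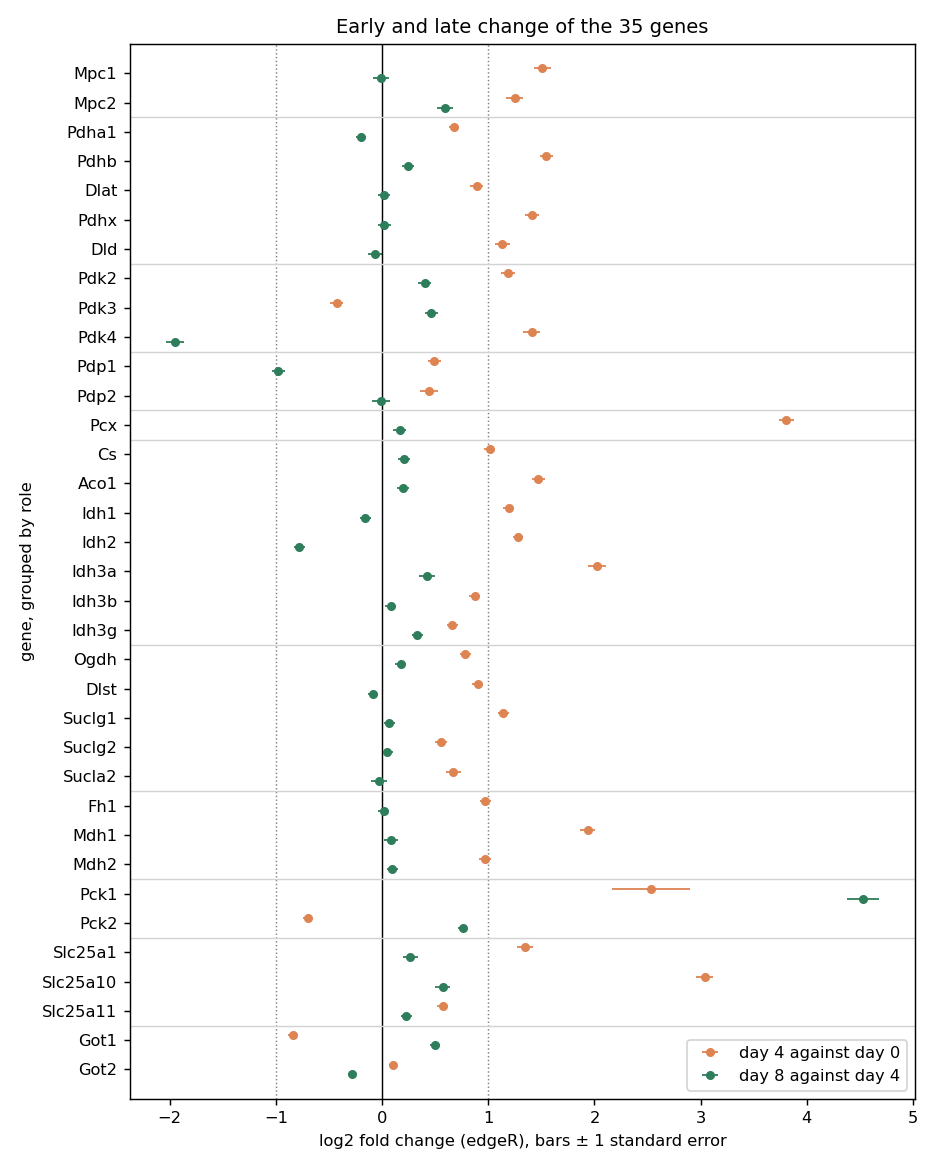
Points give the log2 fold change of each gene by edgeR with bars of 1 standard error, orange for day 4 against day 0 and green for day 8 against day 4, with dotted lines at a 2-fold change. The orange points lie mostly between 0 and 2 while most green points lie close to 0, and Pck1 is the gene whose green point lies far to the right.

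Pyruvate carboxylase, encoded by Pcx, showed the largest early rise of the 35. Its FPKM was 18.2, 20.1 and 18.8 at day 0, 235, 269.7 and 259.6 at day 4, and 262, 286 and 285 at day 8. Every day 4 and day 8 sample lay above every day 0 sample, and the highest day 4 sample lay above the lowest day 8 sample. The early log2 fold change was 3.81 ± 0.07 (SE; adjusted p = 1.26e-16, edgeR). The late change was 0.17 ± 0.06 (adjusted p = 0.0301), under 2-fold. It did not pass without day 4 replicate 1 (0.11), day 8 replicate 2 (0.15) or day 8 replicate 3 (0.17), with library size alone (0.12), or with limma on FPKM at either pseudocount (0.12 in both). Among the 35 enzymes, Pcx stood at position 27 by mean FPKM at day 0 and at position 2 at day 4 and day 8, behind Mdh2. Its ratio to Pdha1, the catalytic subunit of pyruvate dehydrogenase, went from 0.258 to 2.26 by day 4 and 2.92 by day 8, on the FPKM scale. Ratios between genes were chosen after the values were seen and are given as a description.

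Both subunits of the mitochondrial pyruvate carrier rose early. Mpc1 had 32, 31.5 and 33.4 FPKM at day 0, 80.3, 82.1 and 101 at day 4, and 81.8, 88.5 and 83.3 at day 8, with day 0 apart from the later days and those overlapping. The early log2 fold change of Mpc1 was 1.51 ± 0.08 (adjusted p = 5.81e-11, edgeR). Of the 50-base stretches of Mpc1 transcripts, 26.3% also occur in other genes, chiefly 4930506C21Rik on the opposite strand, which had 0.27 to 1.07 FPKM. The strand setting of the counting is not given in the sources used here, so reads of both cannot be told apart where they overlap. Mpc2 had 26.6, 31.1 and 29.3 FPKM at day 0, 61.3, 60.8 and 75.04 at day 4, and 103, 95.04 and 90.9 at day 8. The 3 days did not overlap, and Mpc2 rose by 1.25 ± 0.08 early and by 0.60 ± 0.07 late on the log2 scale (adjusted p = 1.06e-09 and 7.67e-06, edgeR). The share of Mpc1 in the sum of both was 54.6%, 50.3% and 53.3% at day 0, 56.7%, 57.5% and 57.5% at day 4, and 44.4%, 48.2% and 47.8% at day 8. These shares were lowest at day 8 in every sample, and the days differed (exact permutation test over the 9 samples, p = 0.003571, the smallest these samples allow, adjusted p = 0.00714 over 8 shares).

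The 5 subunit genes of the pyruvate dehydrogenase complex all rose early, by 0.68 to 1.55 on the log2 scale, and 3 of them by more than 2-fold, against 35.5% and 9.77% of all genes tested. Pdhb, which encodes the beta subunit of the first enzyme, had 42.6, 44.7 and 41.6 FPKM at day 0, 109, 123 and 127 at day 4, and 134, 139 and 141 at day 8, the 3 days not overlapping. Its early log2 fold change was 1.55 ± 0.06 (adjusted p = 1.44e-12, edgeR). Pdha1, which encodes the alpha subunit of the same enzyme, had 72.7, 74.2 and 74.4 FPKM at day 0, 106, 111 and 121 at day 4, and 94.2, 97.0 and 94.1 at day 8. It was highest at day 4 in every sample. The ratio of Pdhb to Pdha1 went from 0.583 to 1.06 by day 4 and 1.45 by day 8, the samples of the 3 days lying between 0.559 and 0.603, 1.03 and 1.11, and 1.42 and 1.498. Of the exon bases of Pdha1, 16.2% lie in Map3k15 on the opposite strand, which had at most 0.25 FPKM. Pdhx, which tethers the third enzyme to the core, had 9.45, 10.54 and 8.98 FPKM at day 0, 23.1, 24.9 and 25.6 at day 4, and 24.5, 24.7 and 23.1 at day 8. Dld, the third enzyme, which the oxoglutarate dehydrogenase complex also uses, had 29.9, 32.9 and 31.1 FPKM at day 0, 59.4, 62.0 and 75.1 at day 4, and 59.6, 61.5 and 61.3 at day 8. Both stood higher in each later sample than in any day 0 sample, with early log2 fold changes of 1.41 ± 0.06 and 1.13 ± 0.07 (adjusted p = 1.09e-11 and 5.8e-10, edgeR), and the late change of neither passed. Dlat, the acetyltransferase of the core, rose by 0.89 ± 0.06 early.

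The kinases that switch pyruvate dehydrogenase off by phosphorylation parted ways. Pdk4, known as a gene of fasting and fat burning, had 6.03, 6.34 and 7.09 FPKM at day 0, 18.4, 15.4 and 15.7 at day 4, and 3.99, 4.36 and 4.02 at day 8. Its day 4 samples were the highest and its day 8 samples the lowest, with no overlap between days. The log2 fold change was 1.41 ± 0.08 early and -1.95 ± 0.08 late (adjusted p = 1.47e-10 and 3.09e-11, edgeR). Pdk2 had 12.7, 11.1 and 11.99 FPKM at day 0, 24.2, 26.9 and 26.6 at day 4, and 33.2, 32.6 and 33.7 at day 8, rising at each step without overlap. Its log2 fold change was 1.19 ± 0.06 early and 0.40 ± 0.06 late (adjusted p = 8.13e-11 and 3.8e-05, edgeR). Pdk3 went the other way, with 30.8, 36.1 and 32.4 FPKM at day 0, 22.1, 23.9 and 24.4 at day 4, and 30.98, 32.4 and 30.7 at day 8. Its day 4 samples were the lowest, and its day 0 and day 8 samples overlapped. Of the summed FPKM of these 3 kinases, Pdk4 held 12.2%, 11.9% and 13.8% at day 0, 28.4%, 23.3% and 23.5% at day 4, and 5.86%, 6.29% and 5.88% at day 8. The days differed in this share (exact permutation test, p = 0.003571, adjusted p = 0.00714 over 8 shares). Pdk1, the fourth kinase of the family, is among the neighbouring genes described below.

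Of the phosphatases that reverse these kinases, Pdp1 was far the more abundant. Pdp1 had 20.5, 20.9 and 22.1 FPKM at day 0, 30.9, 27.8 and 26.8 at day 4, and 14.8, 14.4 and 12.8 at day 8. The day 4 samples were highest and the day 8 samples lowest. The late log2 fold change was -0.98 ± 0.06 (adjusted p = 3.89e-09, edgeR), just inside the 2-fold limit. It passed that limit without day 4 replicate 3 (-1.02) or day 8 replicate 1 (-1.01), which made 2 genes called lower in the late phase in place of 1. Pdp2 had 3.30, 3.78 and 3.28 FPKM at day 0, 4.59, 4.52 and 4.34 at day 4, and 4.11, 4.28 and 4.53 at day 8. The share of Pdp1 in both was 86.1%, 84.7% and 87.1% at day 0, 87.1%, 86.0% and 86.1% at day 4, and 78.3%, 77.1% and 73.8% at day 8, lowest at day 8 in every sample (exact permutation test, p = 0.03214, adjusted p = 0.0408 over 8 shares).

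**Figure D3:**
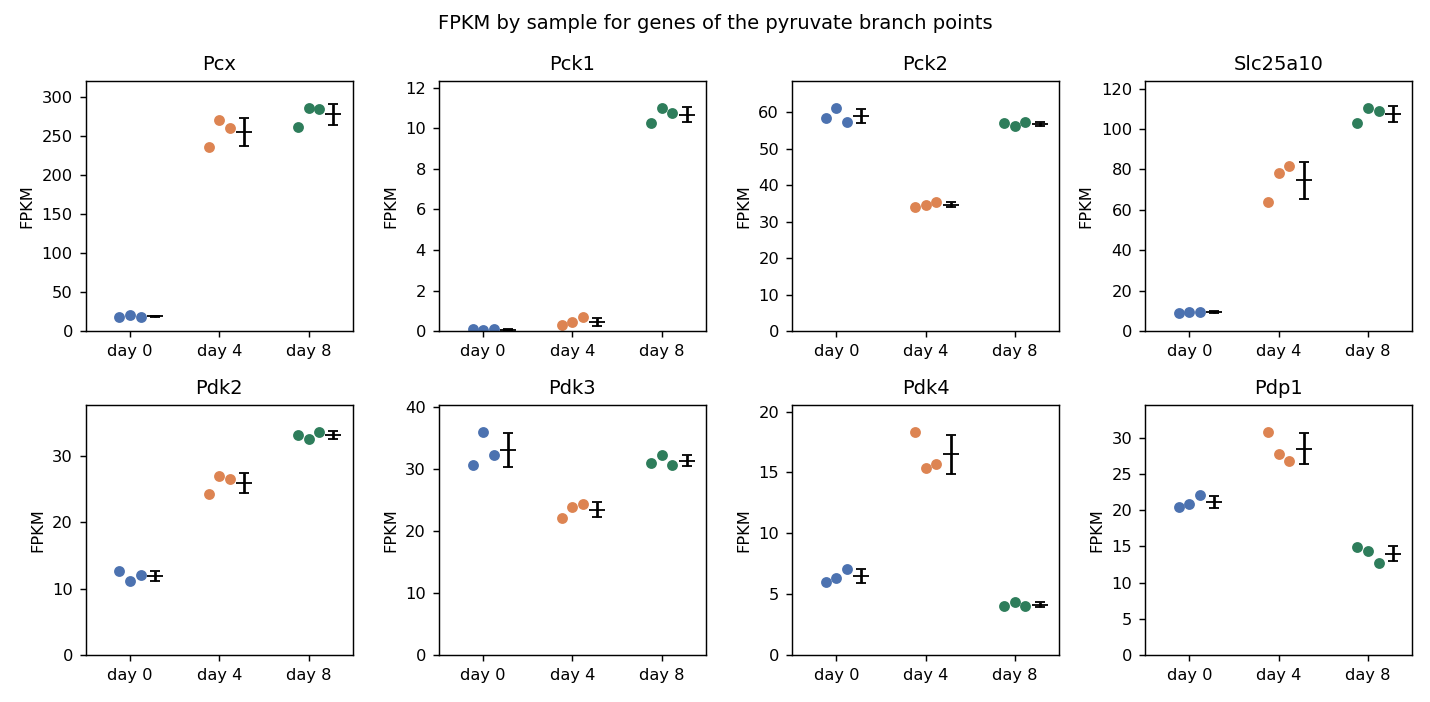
Points give the FPKM of each sample at day 0, 4 and 8 for 8 genes around pyruvate, with the mean and SD (n = 3) at the right of each day and the vertical axis starting at 0. Pcx and Slc25a10 were high from day 4, Pck1 only at day 8, Pdk4 and Pdp1 peaked at day 4, and Pck2 and Pdk3 dipped at day 4.

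The 7 genes of the citrate and isocitrate steps all rose early (35.5% of all genes tested), 5 of them by more than 2-fold (9.77% of all genes), among which Cs lay at the limit. Cs, citrate synthase, had 90.2, 101 and 92.0 FPKM at day 0, 169, 186 and 191 at day 4, and 202, 207 and 202 at day 8. The days did not overlap, and the early log2 fold change of 1.01 ± 0.05 (adjusted p = 9.19e-11, edgeR) lay just past the 2-fold limit. It fell under that limit in 8 of the 20 alternatives, at 0.94 to 0.99, among them without day 0 replicate 1, day 0 replicate 3, day 4 replicate 2 or day 4 replicate 3. Aco1, the cytosolic aconitase, which also acts as an iron sensor, had 19.2, 19.1 and 18.7 FPKM at day 0, 45.3, 51.8 and 53.9 at day 4, and 54.6, 56.5 and 56.7 at day 8. Its early log2 fold change was 1.47 ± 0.06 (adjusted p = 2.46e-12, edgeR).

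Isocitrate dehydrogenase exists as an NAD-linked enzyme of 3 kinds of subunit inside the mitochondrion and as NADP-linked enzymes in the mitochondrion (Idh2) and the cytosol (Idh1). Idh3a, the catalytic subunit of the NAD-linked form, had 20.01, 21.9 and 19.6 FPKM at day 0, 69.9, 76.4 and 92.4 at day 4, and 101, 107 and 102 at day 8. The 3 days stood apart, with a log2 fold change of 2.02 ± 0.08 early and 0.42 ± 0.08 late (adjusted p = 2.66e-12 and 0.000263, edgeR). The partner subunits Idh3b and Idh3g rose by 0.87 ± 0.05 and 0.66 ± 0.05 early. On the FPKM scale the ratio of Idh3a to Idh3b went from 0.298 to 0.658 by day 4 and 0.835 by day 8.

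Idh2 had 86.7, 87.5 and 91.1 FPKM at day 0, 209, 211 and 195 at day 4, and 116, 114 and 118 at day 8. Each day 4 sample lay above each day 8 sample and those above each day 0 sample. The log2 fold change was 1.28 ± 0.05 early and -0.78 ± 0.05 late (adjusted p = 1.19e-12 and 2.12e-09, edgeR). Idh1 had 75.1, 83.4 and 82.3 FPKM at day 0, 169, 177 and 180.1 at day 4, and 149.6, 157 and 151 at day 8. Its early log2 fold change was 1.19 ± 0.05 (adjusted p = 3.93e-12, edgeR), and its late change of -0.16 ± 0.05 (adjusted p = 0.0164), under 2-fold, did not pass without day 4 replicate 2 (-0.12), day 8 replicate 1 (-0.13) or day 8 replicate 3 (-0.13). The share of Idh2 in both NADP-linked forms was 53.6%, 51.2% and 52.5% at day 0, 55.3%, 54.4% and 52.0% at day 4, and 43.6%, 42.1% and 44.0% at day 8. Day 0 and day 4 overlapped and day 8 lay below both (exact permutation test, p = 0.01071, adjusted p = 0.0171 over 8 shares).

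Among the oxoglutarate dehydrogenase and succinyl-CoA ligase genes the rise was mostly under 2-fold. All 5 passed in the early phase, with log2 fold changes of 0.55 to 1.14, and 1 was called above 2-fold, against 35.5% and 9.77% of all genes tested. That gene was Suclg1, the alpha subunit common to both succinyl-CoA ligases, with 44.8, 46.5 and 43.4 FPKM at day 0, 87.9, 96.3 and 99.1 at day 4, and 96.9, 94.99 and 96.3 at day 8. Its early log2 fold change was 1.14 ± 0.05 (adjusted p = 1.03e-11, edgeR). Ogdh and Dlst, subunits of oxoglutarate dehydrogenase, rose by 0.78 ± 0.05 and 0.90 ± 0.05. The beta subunits decide between ADP (Sucla2) and GDP (Suclg2). Sucla2 had 19.9, 21.8 and 21.1 FPKM at day 0, 29.6, 29.3 and 36.7 at day 4, and 29.6, 31.3 and 29.9 at day 8. Suclg2 had 19.5, 20.5 and 21.4 FPKM at day 0, 27.9, 26.7 and 31.4 at day 4, and 28.99, 28.4 and 28.9 at day 8. In both the day 0 samples lay below all later ones, and day 4 and day 8 overlapped. Sucla2 held 50.5%, 51.5% and 49.6% of their sum at day 0, 51.5%, 52.3% and 53.9% at day 4, and 50.5%, 52.4% and 50.8% at day 8, with overlap between all days (exact permutation test, p = 0.1429, adjusted p = 0.143 over 8 shares).

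Of the fumarate and malate steps, cytosolic Mdh1 moved most. Mdh1 had 43.6, 45.5 and 46.7 FPKM at day 0, 145, 165 and 186 at day 4, and 167, 170.4 and 172 at day 8. Day 0 lay below all later samples, and day 4 and day 8 overlapped. The early log2 fold change was 1.94 ± 0.07 (adjusted p = 8.58e-13, edgeR). Mdh2, the mitochondrial form, was the most abundant of the 35 on each day and had 179, 194 and 182 FPKM at day 0, 313, 361 and 364 at day 4, and 355, 362 and 359.5 at day 8. It rose by 0.97 ± 0.06 early (adjusted p = 2.63e-10, edgeR) and Fh1, fumarase, by 0.97 ± 0.05, both just inside the 2-fold limit, which Mdh2 passed without day 4 replicate 1 (1.04). The share of Mdh2 in both malate dehydrogenases was 80.5%, 81.0% and 79.6% at day 0, 68.4%, 68.6% and 66.2% at day 4, and 68.0%, 68.0% and 67.7% at day 8. It was highest at day 0 in every sample (exact permutation test, p = 0.03571, adjusted p = 0.0408 over 8 shares).

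Of the phosphoenolpyruvate carboxykinases, Pck2 fell early, and Pck1 and Pck2 both rose late. Pck1, the cytosolic form and the one long studied in glyceroneogenesis, had expected counts of 4.86, 3.26 and 4.99 at day 0, 16.0, 23.5 and 35.3 at day 4, and 542, 583 and 562 at day 8. In FPKM these were 0.09, 0.07 and 0.09, then 0.30, 0.44 and 0.68, then 10.3, 11.01 and 10.8. The 3 days stood far apart, and the day 0 counts lie little above 3, the count taken as the lowest the depth can show. The late log2 fold change was 4.53 ± 0.15 (adjusted p = 1.72e-12, edgeR). The fitted early and whole-process values were 2.53 ± 0.37 and 7.06 ± 0.21. Pck1 passed the filter on low counts through the later days alone, so its direction against day 0 is not read as a result. The fitted early value moved with the pseudocount, being 0.44 with limma on log2(FPKM + 1) and 1.59 on log2(FPKM + 0.1). Pck2, the mitochondrial form, had 58.4, 61.2 and 57.4 FPKM at day 0, 34.0, 34.6 and 35.5 at day 4, and 57.1, 56.2 and 57.3 at day 8. Its day 4 samples were all lower than the rest, which did not pass against each other (log2 fold change over the whole process 0.06 ± 0.04, adjusted p = 0.233, edgeR). The change was -0.70 ± 0.04 early and 0.76 ± 0.04 late (adjusted p = 5.76e-10 and 1.08e-09). Pck1 thus held 0.154%, 0.114% and 0.157% of the summed FPKM of both at day 0, 0.875%, 1.25% and 1.88% at day 4, and 15.2%, 16.4% and 15.8% at day 8 (exact permutation test, p = 0.003571, adjusted p = 0.00714 over 8 shares). Pck2 was the more abundant of the pair in every sample.

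The bases before the start of these genes are shown because they are the pair of isoenzymes that parted most. Each run is the 120 bases before the RefSeq start on the plus strand of GRCm38.p6, for Pck1 at chr2:173152953-173153072 and for Pck2 at chr14:55540146-55540265, and capitals mark matches to TNACGTCA, letters close to the cAMP response element, and to TATANA, letters of the box that often lies a short way before a start.
Pck1: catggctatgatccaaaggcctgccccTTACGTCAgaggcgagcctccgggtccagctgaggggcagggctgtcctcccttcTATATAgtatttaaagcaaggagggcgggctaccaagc
Pck2: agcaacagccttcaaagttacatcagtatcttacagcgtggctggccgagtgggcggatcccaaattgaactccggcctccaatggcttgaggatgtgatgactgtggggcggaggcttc
In Pck1 the letters TTACGTCA begin 93 bases and TATATA 38 bases before the start, and the Pck2 stretch holds neither. Both patterns were chosen after these sequences had been seen, as part of 5 patterns tried after 4 others, so the marks describe the sequence and no more. Over the 250 bases before the start on both strands, TNACGTCA occurs in 2.52% of 32851 promoters and in 4 of the 33 enzymes that had a promoter in the RefSeq table (Mdh2, Ogdh, Pck1 and Pdhb), and TATANA on the sense strand in 16.4% of promoters and in Idh3b and Pck1. The other 3 tried were TTACGTCA (0.447% of promoters, 1 enzyme), GGGCGG (32.7%, 23 enzymes) and CCAAT (33.8%, 21 enzymes), all on both strands, the first of which is contained in TNACGTCA. The 4 searched before these were the strict cAMP response element TGACGTCA, also contained in TNACGTCA (1.55% of promoters, in Mdh2 and Ogdh), the NRF1 letters GCGCANGCG (5.16%, in Ogdh and Sucla2), the ERR letters TNAAGGTCA (1.14%, in 0 enzymes) and a DR1 repeat (0.0335%, in 0 enzymes), all on both strands. These shares count promoters, while enzymes are counted as genes, and some genes, such as Ogdh, have more than 1 promoter. By gene, TGACGTCA occurs in 1.77% and GCGCANGCG in 5.86% of 27025 genes. The promoters of 1 chromosome were not searched.

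Carriers that let citrate and malate cross the inner membrane rose early, all 3 of them, against 35.5% of all genes tested. Slc25a10, the dicarboxylate carrier, had 9.15, 9.69 and 9.69 FPKM at day 0, 64.0, 78.1 and 81.5 at day 4, and 103, 110.5 and 109 at day 8. It stood at position 32 of 35 at day 0 and at position 12 at day 8, and no sample of any day overlapped another day. The log2 fold change was 3.04 ± 0.08 early and 0.57 ± 0.07 late (adjusted p = 1.59e-14 and 6.15e-06, edgeR). Slc25a1, which exports citrate in exchange for malate, had 64.0, 65.2 and 63.3 FPKM at day 0, 134, 164 and 170.03 at day 4, and 179, 175 and 192 at day 8. Its early log2 fold change was 1.35 ± 0.07 (adjusted p = 1.06e-10, edgeR). Slc25a11, the oxoglutarate carrier of the malate-aspartate shuttle, rose less, by 0.57 ± 0.05. The ratio of Slc25a10 to Slc25a11 on the FPKM scale went from 0.219 to 1.21 by day 4 and 1.54 by day 8.

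The aspartate aminotransferases work in that shuttle beside the malate dehydrogenases Mdh1 and Mdh2, which rose early. Got1, in the cytosol, had 45.1, 46.0 and 44.1 FPKM at day 0, 24.2, 24.3 and 23.6 at day 4, and 34.3, 31.97 and 32.6 at day 8. The day 4 samples were the lowest and the day 0 samples the highest, and the log2 fold change was -0.84 ± 0.05 early and 0.50 ± 0.05 late (adjusted p = 1.34e-10 and 3.5e-07, edgeR). Got2, in the mitochondrion, had 143, 146 and 142 FPKM at day 0, 149, 149 and 144 at day 4, and 119.5, 116 and 117 at day 8. Its day 0 and day 4 samples overlapped, and its early change of 0.10 ± 0.04 (adjusted p = 0.0374, edgeR) did not pass in 14 of the 20 alternatives tried, 7 of which left out 1 sample, with values of 0.08 to 0.11 in those 7 and of 0.04 to 0.11 over the 14, so its place among the 32 genes that rose and the 6 that rose and then fell rests on this fit. With the replicate block it was 0.10 and did not pass. Of the 50-base stretches of Got2, 25.6% occur in other genes, so its level is uncertain. The share of Got2 in both was 76.0%, 76.0% and 76.3% at day 0, 86.0%, 86.0% and 85.9% at day 4, and 77.7%, 78.4% and 78.2% at day 8, highest at day 4 in every sample (exact permutation test, p = 0.003571, adjusted p = 0.00714 over 8 shares).

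**Figure D4:**
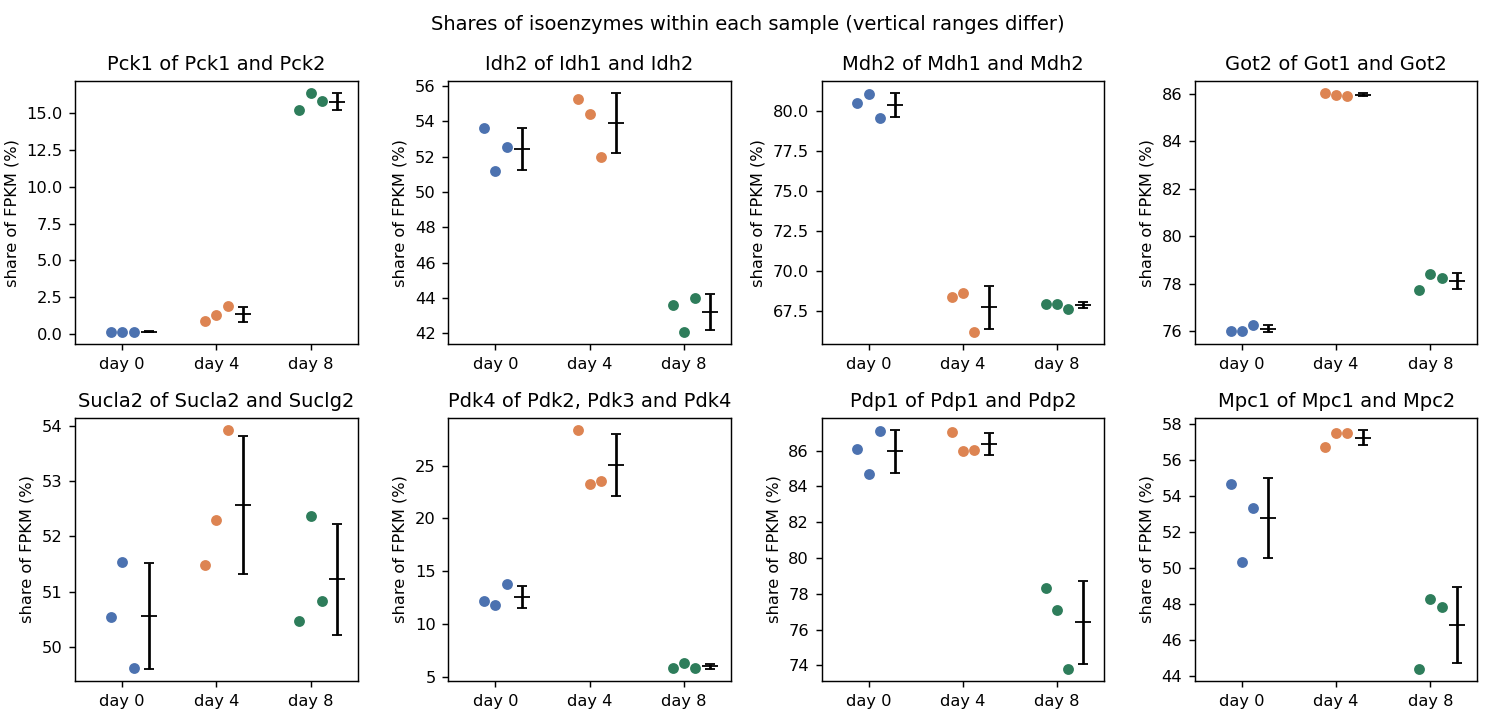
Each panel gives the share of summed FPKM (%) that an isoenzyme or subunit held in each sample at day 0, 4 and 8, with the mean and SD (n = 3) beside the points and a vertical range of its own. The Pck1 share rose to 15.2 to 16.4% at day 8, the Pdk4 and Got2 shares peaked at day 4, and the Sucla2 share overlapped between all days.

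Genes around the same steps gave a mixed picture. Of 37 pathway neighbours, 35 were listed and 31 tested, and 9 were called higher and 1 lower in the early phase (9.77% and 7.98% of all genes tested), with a median log2 fold change of 0.63. Gpt, an alanine aminotransferase, which makes pyruvate of alanine, went from 1.66 ± 0.17 to 24.97 ± 3.0 by day 4 and 45.9 ± 2.9 FPKM by day 8 (SD, n = 3). Its early change was 3.96 on the log2 scale. Ldhb and Ldha, subunits of lactate dehydrogenase, rose by 2.16 and 1.08 early, and Adhfe1, Slc25a22, Lias and Pdk1 were also called higher. Ogdhl, a relative of Ogdh, fell by 1.29. In the late phase 1 of 31 neighbours was called higher, a share no greater than the 4.24% of all genes. It was the kinase Pdk1, with 6.36 ± 0.18, 12.9 ± 2.1 and 31.5 ± 2.9 FPKM on the 3 days and a late log2 fold change of 1.33 (adjusted p = 8.6e-09, edgeR). By day 8 Pdk1 stood close to Pdk2 (33.1) and Pdk3 (31.4) in mean FPKM. Cytosolic malic enzyme, Me1, rose in both phases, by 0.40 and 0.78, and Acly, which splits exported citrate, had 62.0, 55.1 and 68.6 FPKM on the 3 days and rose in the late phase (0.36) while its early change of -0.10 did not pass.

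Of 14 genes of glycerol phosphate supply, 11 were listed and 10 tested, with 2 called higher early (Gpd1 and Aqp7) and 4 late (Aqp7, Tpi1, Pgk1 and Gapdh), against 9.77% and 4.24% of all genes, and with median log2 fold changes of 0.58 and 0.95. Aqp7 passed the filter on low counts through the later days alone, so its early direction is not read as a result. In the test of the early against the late change, the early one was the greater in 3 of the 10 and the late one in 4, against 30.4% and 26.2% of all genes. Gpd1, which makes glycerol phosphate from the glycolytic intermediate, had 0.667 ± 0.042 FPKM at day 0, 334 ± 30 at day 4 and 621 ± 14 at day 8, so that Pck1, at 10.7 FPKM at day 8, was far less abundant. Gk, glycerol kinase, had 1.88 ± 0.48, 2.62 ± 0.31 and 3.33 ± 0.059 FPKM.

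Mitochondrial import and housekeeping genes changed by less than 2-fold throughout. All 22 were tested, 16 rose and 1 fell early at an adjusted p under 0.05 (35.5% and 33.7% of all genes), 0 were called above 2-fold in any phase, and the median early log2 fold change was 0.42. The largest was Tufm at 0.99. Among 17 tested regulators of mitochondrial and gluconeogenic genes, 5 were called higher early (9.77% of all genes), Pparg, Cebpa, Ppargc1b, Foxo1 and Esrra, and 0 lower. At an adjusted p under 0.05, 8 rose and 8 fell early, with a median log2 fold change of 0.00. Ppargc1a had 3.66 ± 0.15, 2.34 ± 0.13 and 4.48 ± 0.14 FPKM on the 3 days, and Nr3c1, the glucocorticoid receptor, 26.4 ± 0.92, 16.4 ± 1.1 and 28.7 ± 1.0. Both fell early and rose late at an adjusted p under 0.05.

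**Figure D5:**
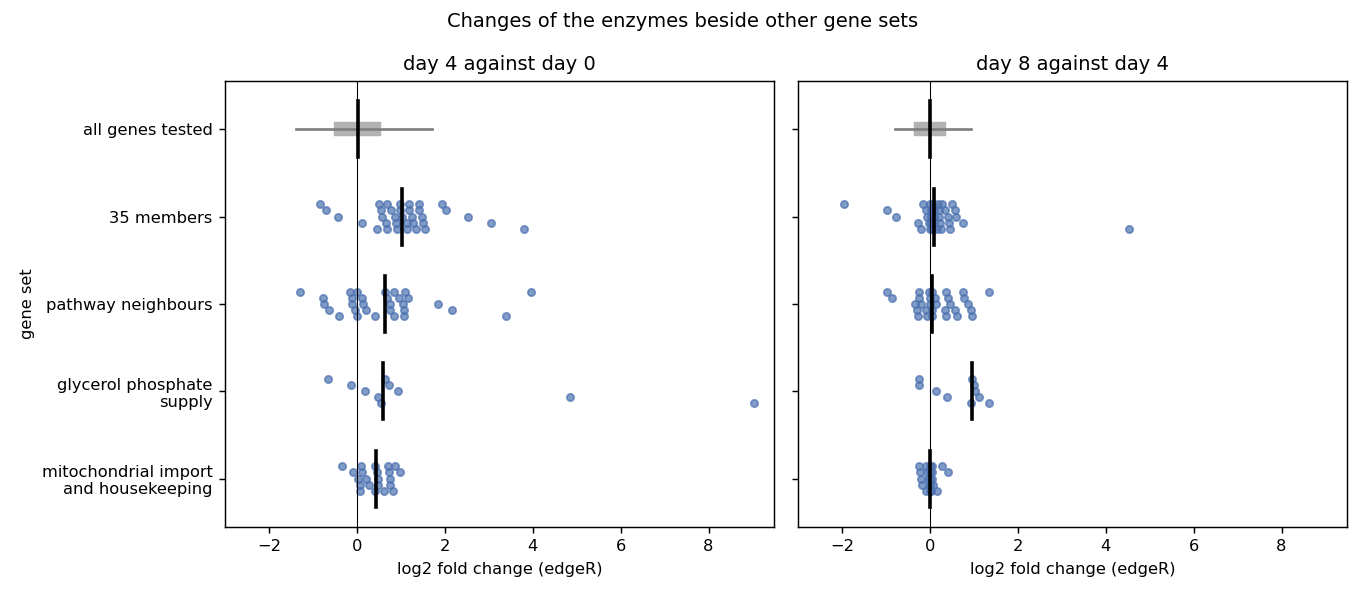
Points are the genes of each set by log2 fold change from edgeR, black bars are medians, and for all genes tested the thick grey bar spans the 25th to 75th percentile and the thin line the 5th to 95th percentile. The early median is 1.01 for the 35 enzymes and 0.42 for mitochondrial import and housekeeping genes, and the late median is 0.95 for glycerol phosphate supply.

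Within day 4 the samples had an order that the enzymes and the adipocyte markers shared. Day 4 replicate 1 was the lowest of the 3 in 25 of the 35 enzymes (71.4%) and in 10 of 10 adipocyte markers, against 35.8% of all genes tested, and day 4 replicate 3 was the highest in 27 of 35 (77.1%) and in 9 of 10 markers, against 40.2%. Adipoq had 374, 464 and 561 FPKM in the 3 day 4 samples. This order was noticed in the data, and its part in the results was not tested. Leaving out any single sample kept the number of enzymes called higher early between 17 and 19.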

How the data were processed

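RNA-seq of 9 samples of 3T3-L1 cells (3 replicates at each of day 0, day 4 and day 8) was analysed. Per the study's methods, cells were pooled and RNA was mixed for each stage and sequenced on an Illumina platform, reads of low quality were removed, clean reads were mapped with HISAT/Bowtie2 and expression was estimated with RSEM. The labels name another library kit, CASAVA 1.4 and Bowtie2. The genome build, the strand setting and other versions are not given in the sources used here. The authors deposited an expected count per gene, an estimate that is not normalized and of which 29.8% were not whole numbers, and an FPKM value, scaled to gene length and sample depth.

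Expected counts were rounded. Depth was 18216114 to 20452144 expected counts per sample, at which 3 counts are 0.147 to 0.165 CPM, a floor that covers counting error only. Counts were filtered with filterByExpr by day, scaled with TMM and fitted in R 4.3.3 with the quasi-likelihood test of edgeR 4.0.16, with 1 coefficient per day, no covariate and Benjamini-Hochberg adjustment over 13154 genes. The SE is the log2 fold change over the square root of F. The common coefficient of variation between replicates was 0.0538. Replicates of a day differed by more than sampling noise, and none were merged. Shares of isoenzymes were computed from FPKM, and their between-day sum of squares was tested with exact permutation of the 9 samples over days (1680 assignments). This asks whether the days differ and not which day does. Steps were tested on simulated data. Sequences are RefSeq's, and shared 50-base stretches come from GENCODE vM21. Python 3.11.15 with scipy 1.17.1 was used for the permutation tests.

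The text describes all 35 genes by role, with values in each sample for those called or tested as shares, and names genes of the other lists that were called or that mark a step. Some genes of the other lists are counted but not reported by name here. Members and lists were chosen with earlier results of these data known. The alternatives were RLE and upper-quartile factors, library size alone, DESeq2 1.42.0, edgeR's exact test (1 of the methods the study names, beside NOIseq and PossionDis, which were not run here), limma 3.58.1 on log2(FPKM + 1) and log2(FPKM + 0.1), no filter, at least 10 counts in every sample, separate models, a replicate block and leaving out each sample.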

Additional observations from a re-analysis of the deposited data

How the results depend on the processing

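The 15 counts and medians over the 35 enzymes were recomputed under 20 alternatives. The number called higher was 16 to 19 in the early phase (18 in the analysis reported) and 14 to 19 over the whole process (17). At an adjusted p under 0.05, 11 to 18 rose and 5 to 7 fell late (16 and 6). Counts over the whole process sit on the 2-fold limit for 8 enzymes with a log2 fold change between 0.9 and 1.1, a band chosen after the values were seen. The early median was 0.896 with limma on log2(FPKM + 1), and the whole-process median was 0.94 with upper-quartile factors, 0.88 with library size alone, 0.87 with limma on log2(FPKM + 1) and 0.88 with limma on log2(FPKM + 0.1). In the late phase the number called lower was 2 with library size alone and with limma on log2(FPKM + 0.1), where Pdp1 passed the 2-fold limit, and 1 to 2 when samples were left out in turn. The number called higher in the late phase was 0 with at least 10 counts in every sample, since that filter removes Pck1. Library size alone moved the median of all genes by -0.111 over the whole process and limma on log2(FPKM + 0.1) by -0.107, and changes under these settings are relative to that shift.

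Of all genes tested, limma on log2(FPKM + 1) called 708 higher and 564 lower in the early phase against 1285 and 1050, 224 and 136 in the late phase against 558 and 370, and 753 and 528 over the whole process against 1356 and 1013. At least 10 counts in every sample left 11799 genes tested, of which 831 and 754, 310 and 173, and 913 and 682 were called. The cause of the limma differences was not tested.

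Of 2097 values of single enzymes under an alternative, 0 reversed. By the adjusted p alone, 30 moved above 0.05 and 3 moved under it. Those that moved above were the early change of Got2 (14) and late changes of Pcx (6), Ogdh (3), Idh1 (3), Aco1 (2), Cs (1) and Slc25a1 (1). By the adjusted p and the 2-fold limit together, 20 lost their call and 19 gained one. The lost calls were early Cs (8 alternatives, 0.94 to 0.99), early Pck1 (limma on log2(FPKM + 1), 0.44) and, over the whole process, Idh1 (5, 0.92 to 0.99), Dld (3, 0.94 to 0.96) and Mdh2 (3, 0.95 to 0.96). The gained calls were early Mdh2 (1, 1.04), late Pdp1 (4, -1.02 to -1.01) and, over the whole process, Idh3g (9) and Fh1 (5), both at 1.00 to 1.04. Whether the replicate numbers pair the samples is not settled here. Deviations from the day means correlated at -0.0348 to 0.0749 in samples with the same number (mean 0.0308, 9 pairs). Those with different numbers correlated at -0.0154 on average, a value largely set by the first, since deviations within a day sum to 0. Correlations this small cannot exclude a pairing. With a replicate block 1287 and 1053 genes were called in the early phase, and among the enzymes only the early change of Got2 crossed an adjusted p of 0.05, at a log2 fold change of 0.10.

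The 8 shares kept their side of 0.05 under each of 10 alternatives. Their direction was judged by 3 rules, of which the second and the third were tried after the outcome of the one before had been seen. By the day with the highest mean, the Pdp1 share reversed without day 0 replicate 2 (adjusted p = 0.0238, within 0.019 to 0.0408 over the samples left out in turn), where the day 0 and day 4 means were 86.6% and 86.4%. By the day mean farthest from the average, the Mpc1 share changed without day 0 replicate 1 (adjusted p = 0.00714). By the order of the days farthest apart, 0 changed. Depth limits the early change of Pck1 most, with 3.26 to 4.99 counts per day 0 sample.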
